A study of Mus musculus with 8 samples.

Results

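Tcfl5, Got1l1, Zcwpw1, Tdrkh and Msh5 are 5 genes best known from the testis or from meiosis. They were chosen by the measured difference in their RNA level between muscle stem cells infected with Cre adenovirus and cells infected with GFP adenovirus. They are 5 of the 20976 genes in the deposited table. Tcfl5 and Got1l1 were chosen as higher in Cre, and Zcwpw1, Tdrkh and Msh5 as lower. Because this difference chose them, their values are given as a description with no test.

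The cells were muscle stem cells, purified by flow cytometry from mice homozygous for a loxP-flanked Chd4 gene, so both groups carry that allele. They were expanded briefly in medium with serum and FGF. In the Cre group, an adenovirus carrying Cre recombinase deleted exons 12 to 21 of Chd4, the gene of a chromatin remodelling ATPase in the NuRD complex. The GFP group received an adenovirus carrying GFP as the infection control. Each group had 4 libraries of total RNA, from 4 mice. The labels give no strain, sex, age or time after infection. Cre was not applied to cells with an unfloxed Chd4 gene in the libraries analysed.

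Meiosis reduces the chromosome set by pairing homologous chromosomes, breaking and exchanging their DNA, and separating them. Many genes for this programme are silent or nearly silent in somatic cells, where DNA methylation and repressor complexes at CpG-rich promoters are known to hold them off. The 5 genes serve different steps. TCFL5 is a basic helix-loop-helix transcription factor of spermatocytes. ZCWPW1 reads the histone marks that the methyltransferase PRDM9 writes at recombination hotspots. MSH5 forms, with MSH4, the MutS-type clamp that stabilises crossover intermediates. TDRKH is a tudor and KH domain protein of mitochondria that helps mature the small piRNAs silencing transposons in germ cells. GOT1L1 is a testis-enriched relative of the aspartate aminotransferase GOT1.

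Chd4 was at 4828 ± 787 normalised reads in Cre and 17636 ± 1848 in GFP (mean ± SD, n = 4 each), with no overlap between the groups. Normalised reads are gene counts after scaling of the libraries and rounding, as deposited. Scaled totals lay between 27.9 and 28.9 M, and the original depth, estimated from gaps in the low values, between 23.3 and 38.0 M reads. The satellite cell and myoblast markers were abundant, with summed values of 116167 to 140615 in Cre and 101331 to 123528 in GFP over 8 genes. Within them Pax7 (5432 in Cre and 5966.5 in GFP), Myf5 (560 and 822) and Vcam1 (3211 and 3959.5) were lower in Cre in 4 of 4 pairs. Myog (23057.5 in Cre and 17310.5 in GFP) was higher in 4 of 4 pairs, Myod1, Des and Cdh15 in 3 and Itga7 in 2. Of 8 germ cell markers, the 4 measured (Ddx4, Dazl, Sycp3 and Prm1) together reached only 9 to 21 in Cre and 7 to 21 in GFP. Summed pericyte and smooth muscle markers were at 58438 to 91654 in Cre and 25839 to 47494 in GFP over 6 genes. Rgs5 carried this gap, at 23078 to 53834 in Cre and 6092 to 13761 in GFP, and without it the sums overlapped (21716 to 44138 in Cre and 18119 to 41402 in GFP). Acta2, which made up most of the sums without Rgs5, averaged 29084 in Cre and 29166 in GFP. Mcam averaged 3912 in Cre and 1731.5 in GFP and was higher in Cre in 4 of 4 pairs. Cspg4, at 538.5 in Cre and 458.5 in GFP, was also higher in 4 of 4 pairs. Pdgfrb (56.75 in Cre and 40.25 in GFP) and the scarce Myh11 (6.25 and 5.25) were higher in 3 of 4. Summed endothelial markers were at 276 to 408 in Cre and 141 to 182 in GFP over 4 of 5 genes. This came mainly through Tek, which averaged 209 in Cre and 77.5 in GFP, while Pecam1 averaged 93.3 in Cre and 77.8 in GFP. Kdr averaged 26.5 in Cre and 6.5 in GFP. Tek, Pecam1 and Kdr were each higher in Cre in 4 of 4 pairs, and Cdh5, at 6.0 in Cre and 4.25 in GFP, in 2. The sums overlapped for fibro-adipogenic markers (4 of 6 genes, 697 to 1003 in Cre and 628 to 1486 in GFP), within which Ly6a was higher in Cre (441 against 89.8 in GFP) and Cd34 lower (327 against 809 in GFP), both without overlap. They also overlapped for immune markers (2 of 6, 89 to 396 in Cre and 28 to 243 in GFP), although Cd68, which made up most of them, was higher in Cre in 4 of 4 pairs, and for Schwann cell markers (3 of 4, 67 to 77 in Cre and 37 to 110 in GFP). The part of these other cell types in the values below was not tested. In such bulk samples, fewer cells of a type and less RNA per cell cannot be told apart.

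Tcfl5 was nearly silent in GFP cells and clearly present in Cre cells. It stood at 97, 114, 148 and 57 normalised reads in Cre replicates 1 to 4, against 1, 10, 3 and 1 in GFP replicates 1 to 4. The lowest Cre library was well above the highest GFP library. The means were 104 ± 37.8 in Cre and 3.75 ± 4.27 in GFP (mean ± SD, n = 4 each), a ratio of 27.7. The fitted log2 difference of 4.77 ± 0.60 (SE) was the largest increase among the 12910 genes that passed the filter on low values. That filter asked for at least 1 read per M reads in 4 libraries, and Tcfl5 reached it in 4 Cre and 0 GFP libraries, so it could pass only as a gene that was higher in Cre. The GFP level rests on about 13 original reads over 4 libraries, with an exact Poisson interval of 6.92 to 22.2 at 95%, which covers counting error only. Tcfl5 lies on chromosome 2 at 180621956 to 180642708, minus strand (GRCm38, ENSMUSG00000038932).

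Got1l1 behaved much like Tcfl5, from a similarly low GFP level. Its values were 68, 34, 50 and 58 normalised reads in Cre replicates 1 to 4 and 9, 1, 3 and 10 in GFP replicates 1 to 4, again without overlap. The means were 52.5 ± 14.4 in Cre and 5.75 ± 4.43 in GFP (mean ± SD, n = 4 each), a ratio of 9.13 and a fitted log2 difference of 3.25 ± 0.58 (SE). It ranked 9 among the increases of all genes tested, and it too passed the filter through 4 Cre and 0 GFP libraries. About 26 original reads stand behind the GFP level (95% exact Poisson interval 17.0 to 38.1). Got1l1 is listed on chromosome 8 at 27197459 to 27202547, minus strand (ENSMUSG00000039720), while GENCODE M21 extends it to 27223828.

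The 3 genes that were lower in Cre started from clear GFP expression. Zcwpw1 stood at 25, 59, 69 and 67 normalised reads in Cre replicates 1 to 4, against 89, 164, 216 and 130 in GFP replicates 1 to 4. Every Cre library lay below every GFP library, and replicate 1 was the lowest in each group. The mean of 55.0 ± 20.5 in Cre was 36.7% of the GFP mean of 150 ± 53.8 (mean ± SD, n = 4 each), with a log2 difference of -1.46 ± 0.39 (SE). The gene lies on chromosome 5 at 137787798 to 137822621, plus strand (ENSMUSG00000037108).

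Msh5 showed the most even change. Its values were 37, 40, 41 and 70 in Cre replicates 1 to 4 and 81, 95, 114 and 151 in GFP replicates 1 to 4, without overlap. In both groups replicate 4 was the highest, and the Cre library of that number stood apart from the other 3. The mean was 47.0 ± 15.4 in Cre and 110 ± 30.3 in GFP (mean ± SD, n = 4 each), which is 42.6% of the GFP level and a log2 difference of -1.22 ± 0.28 (SE). Msh5 is listed on chromosome 17 at 35028605 to 35046726, minus strand (ENSMUSG00000007035), inside the major histocompatibility region.

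Tdrkh was the most abundant of the 5 in GFP and the only one of them whose groups overlapped. It stood at 35, 126, 145 and 70 in Cre replicates 1 to 4, against 127, 230, 318 and 216 in GFP replicates 1 to 4. The highest Cre library, replicate 3, exceeded the lowest GFP library, replicate 1, but each Cre library was below the GFP library of its own number. The means were 94.0 ± 50.6 in Cre and 223 ± 78.2 in GFP (mean ± SD, n = 4 each), so that Cre was at 42.2% of GFP with a log2 difference of -1.36 ± 0.47 (SE). Tdrkh lies on chromosome 3 at 94413273 to 94434668, plus strand (ENSMUSG00000041912). Its exons share 2255 bases with Oaz3 on the other strand, a sperm gene of the lists below that is absent from the deposited table. Without known strand use in the counting, reads from that stretch cannot be assigned to either gene. Tcfl5 shares 234 exonic bases with Col9a3 and Zcwpw1 468 with Pilra, also on opposite strands.

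**Figure D1:**
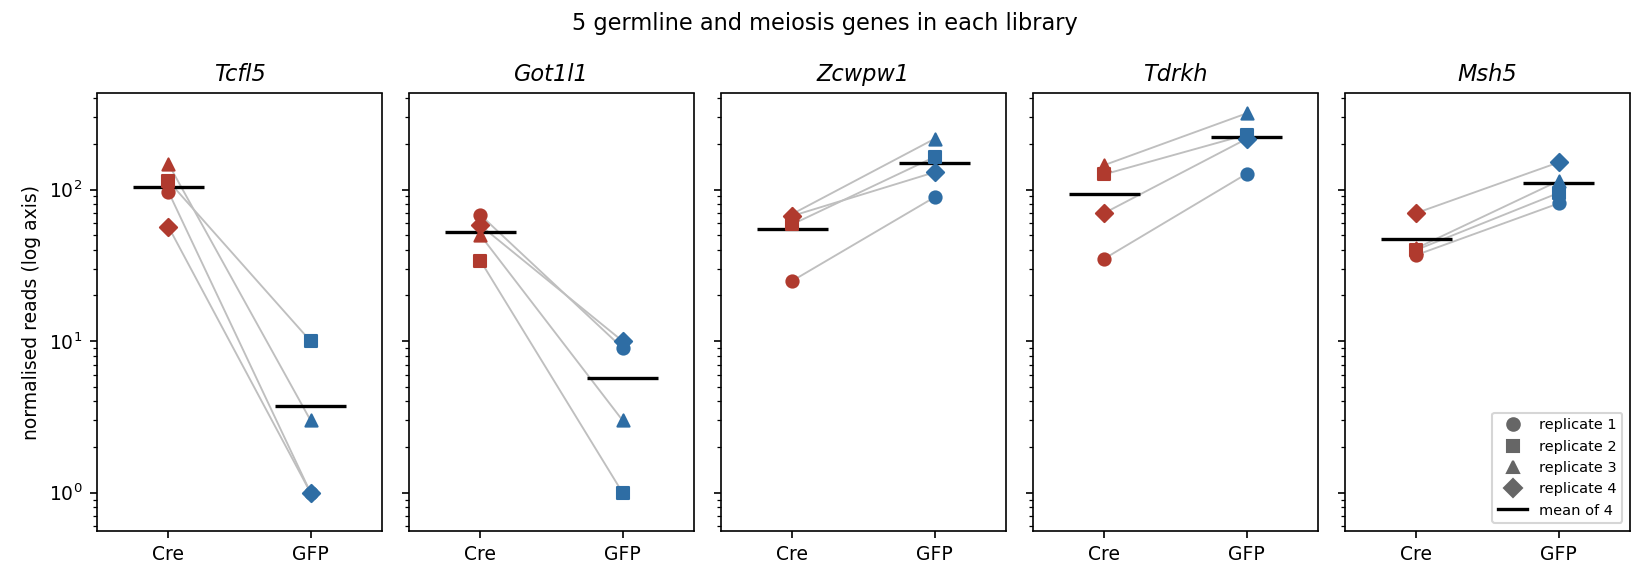
Normalised reads (log axis) of Tcfl5, Got1l1, Zcwpw1, Tdrkh and Msh5 in each library, Cre left and GFP right. Symbols mark the replicate number, grey lines join libraries of the same number and black bars are means of 4. Every line falls to the right for Tcfl5 and Got1l1 and climbs for the other 3 genes, and only Tdrkh has overlapping groups.

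The groups did not overlap for 4 of the 5 genes, where 10.6% of all 12910 tested genes had groups without overlap. Since the same contrast chose the genes, nothing is read from that share. Libraries of the same number deviated together from their group means across all genes (correlations of 0.820 to 0.908, against -0.597 to 0.477 between different numbers), so each pair was also compared directly. Tcfl5 and Got1l1 were higher in Cre in 4 of 4 pairs, with log2 differences of 3.39 to 5.61 for Tcfl5 and 2.42 to 4.13 for Got1l1. Zcwpw1, Tdrkh and Msh5 were lower in 4 of 4 pairs. Their log2 differences spanned -1.79 to -0.95 for Zcwpw1, -1.83 to -0.86 for Tdrkh and -1.45 to -1.10 for Msh5, the narrowest range of the 5. With the replicate number as a block in the model, the SE fell to 0.36 for Tcfl5, 0.33 for Got1l1 and 0.14 to 0.16 for the other 3.

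**Figure D2:**
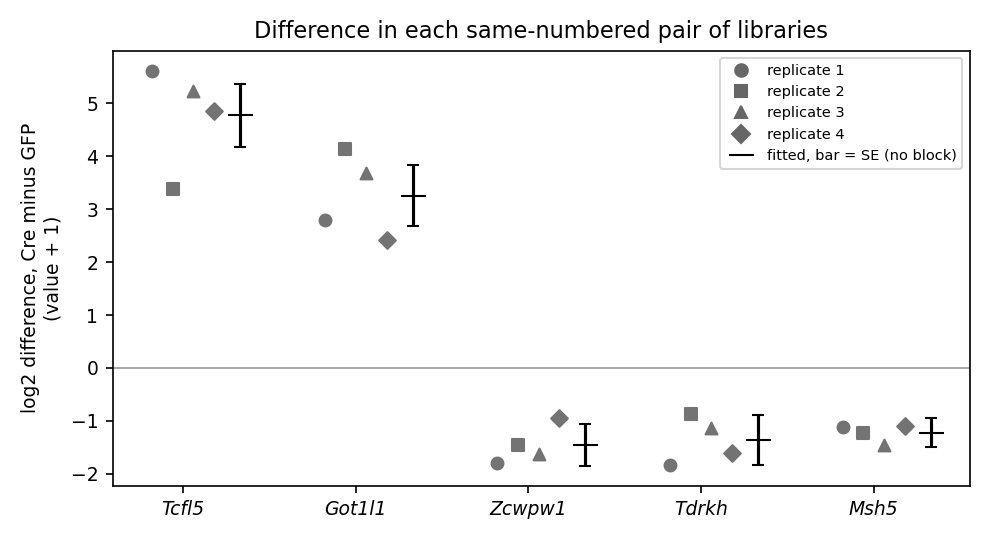
Log2 difference (value + 1), Cre minus GFP, in each same-numbered pair (grey symbols), beside the fitted difference with its SE in the model without a block (black). The 4 pairs of each gene lie on 1 side of 0, and those of Msh5 lie closest together.

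Within a group, the spread between libraries was wider than reads alone would give. The coefficient of variation was 36.4% in Cre and 114% in GFP for Tcfl5, where counting error alone would give 9.88% and 55.5%. For Tdrkh it was 53.8% in Cre and 35.1% in GFP, against 10.4% and 6.73% from counting. Zcwpw1 and Tdrkh deviated from their group means alike over the 8 libraries (r = 0.88), while Tcfl5 and Got1l1 deviated in opposite ways (r = -0.89). The negative r came mainly from the GFP libraries, where both genes had only 1 to 10 normalised reads. About 13 original reads of Tcfl5 and 26 of Got1l1 stand behind those values, so nothing is read from it. The libraries also share pairing and scaling, so both r values are descriptions only.

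Per length of exon, the order of the 5 genes differed between the groups. In Cre, Tcfl5 had 32.8 ± 11.9 normalised reads per kb of exon and Got1l1 28.8 ± 7.88, followed by Tdrkh at 15.3 ± 8.24, Zcwpw1 at 9.65 ± 3.59 and Msh5 at 8.51 ± 2.79 (SD, n = 4). Each neighbour in this order overlapped the next one in its library values. In GFP, Tdrkh led with 36.3 ± 12.7 per kb, ahead of Zcwpw1 at 26.3 ± 9.44 and Msh5 at 20.0 ± 5.49. Got1l1 at 3.16 ± 2.43 and Tcfl5 at 1.18 ± 1.35 came last. In GFP the lowest Msh5 library, at 14.7 per kb, was still above the highest Got1l1 library, at 5.49.

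The promoters of the genes are shown because CpG-rich promoters are the usual place where germline genes are held off. RefSeq (GRCm38.p6) gave 250 bases before the start of 4 of the 5 genes, and the parts before the start listed in the deposited table are printed 5′ to 3′ on the gene's strand. Capitals mark CCAAT (the box bound by NF-Y), GGGCGG (the GC box of Sp and KLF factors) and GGCGGGA (a core of E2F sites), each on either strand, and the GC box and E2F core can overlap.
Tcfl5, chr2:180642709-180642941, minus strand: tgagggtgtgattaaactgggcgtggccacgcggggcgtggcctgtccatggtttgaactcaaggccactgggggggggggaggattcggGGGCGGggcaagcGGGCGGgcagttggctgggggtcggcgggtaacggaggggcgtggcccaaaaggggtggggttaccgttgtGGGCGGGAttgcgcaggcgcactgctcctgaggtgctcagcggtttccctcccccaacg
Zcwpw1, chr5:137787552-137787797, plus strand: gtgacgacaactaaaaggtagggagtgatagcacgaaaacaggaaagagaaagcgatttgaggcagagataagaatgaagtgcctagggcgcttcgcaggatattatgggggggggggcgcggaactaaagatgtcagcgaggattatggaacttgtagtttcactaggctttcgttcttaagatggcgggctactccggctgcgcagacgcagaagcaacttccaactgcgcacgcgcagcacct
Msh5, chr17:35046727-35046872, minus strand: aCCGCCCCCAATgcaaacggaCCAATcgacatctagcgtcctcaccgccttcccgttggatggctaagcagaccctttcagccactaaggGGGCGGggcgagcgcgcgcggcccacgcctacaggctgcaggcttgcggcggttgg
Tdrkh, chr3:94412994-94413243, plus strand: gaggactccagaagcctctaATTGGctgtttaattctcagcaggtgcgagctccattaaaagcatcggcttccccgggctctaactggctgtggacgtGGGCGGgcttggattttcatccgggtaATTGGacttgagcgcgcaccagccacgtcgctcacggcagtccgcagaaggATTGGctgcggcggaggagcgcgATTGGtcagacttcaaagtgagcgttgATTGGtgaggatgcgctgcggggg
The 250 bases held 22 CG dinucleotides for Tcfl5, 16 for Zcwpw1, 22 for Msh5 and 19 for Tdrkh, where the windows of tested genes had a median of 16. CCAAT occurred 5 times for Tdrkh, 3 times for Msh5 (2 of them in the printed stretch) and 0 times for Tcfl5 and Zcwpw1, and 35.1% of windows of tested genes held at least 1. GGGCGG occurred 3 times for Tcfl5, 2 times for Msh5, 1 time for Tdrkh and 0 times for Zcwpw1, against 57.8% of windows with at least 1. GGCGGGA was present 1 time each for Tcfl5 and Msh5 (that of Msh5 outside the printed stretch), against 17.9% of windows. The E-box CACGTG, held by 8.44% of windows, was in 0 of the 4. For Zcwpw1 RefSeq lists a further start upstream, whose 250 bases likewise held 0 of the 4 motifs. Each match is only a run of letters, not a site shown to be bound.

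Most of the germline programme stayed at very low levels. Of 159 listed genes for recombination, the synaptonemal complex, the piRNA pathway, germ cell transcription and sperm, 98 were in the table and 39, the 5 genes included, passed the filter. Without a block, 1.08% of all genes were called (limma, adjusted p under 0.05), 0.837% higher and 0.248% lower. Since the same contrast chose the 5 genes, the other 34 carry the information. Of these, 0 were called without the block, in limma or with voom weights. An unadjusted p under 0.05 was reached by 4 that were higher and 8 that were lower, and by 2157 of all 12910 genes in either direction. With the replicate block 7 were higher, 12 lower and 15 not called, which is 55.9% called where the same model called 43.9% of all genes (22.2% higher and 21.7% lower). Their median log2 difference was -0.10, against -0.00 over all genes tested. The remaining 34 had already lost their most changed members to the choice of the 5 genes.

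**Figure D3:**
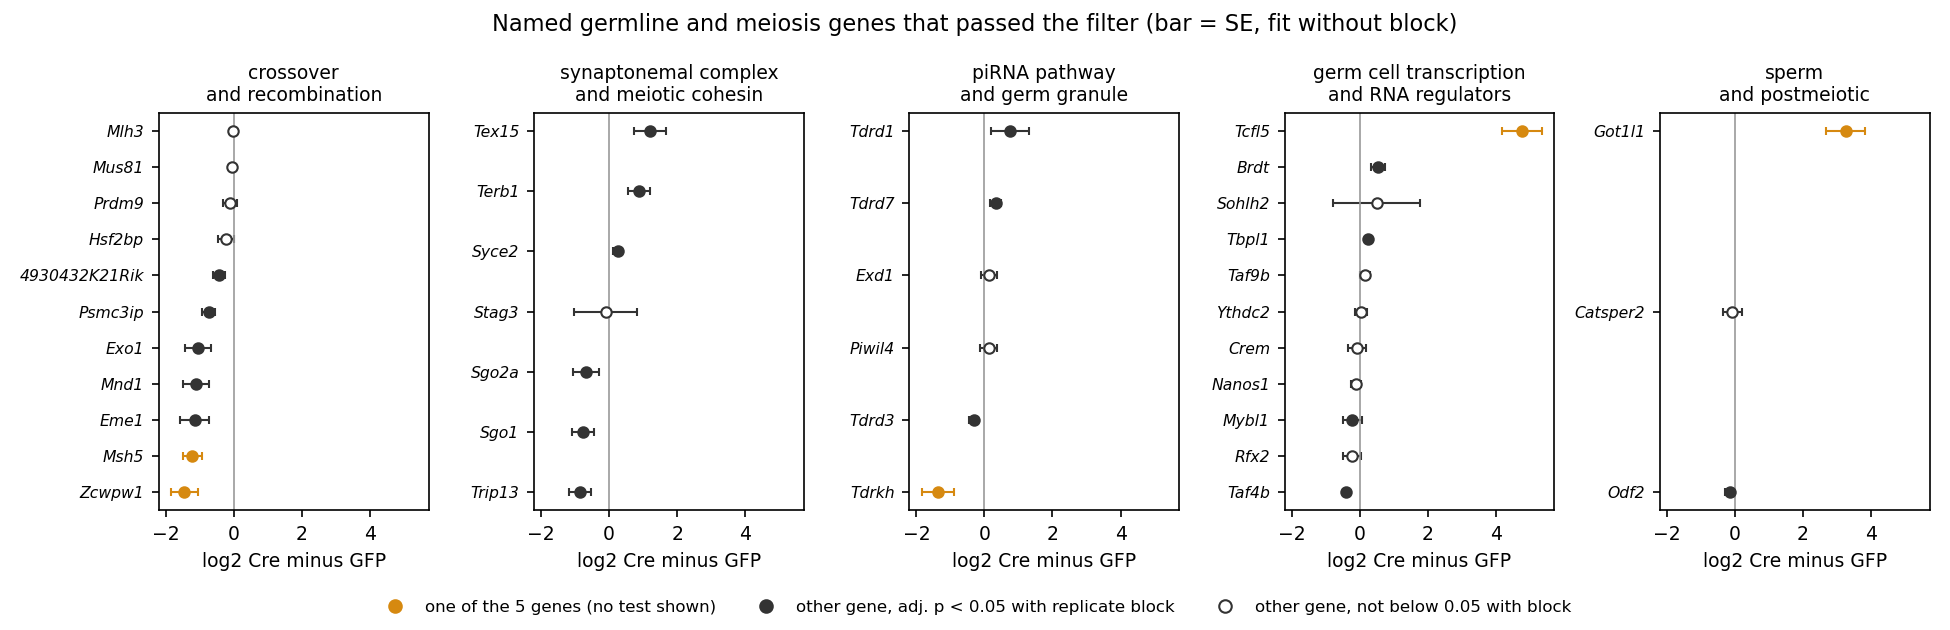
Log2 difference, Cre minus GFP, of germline and meiosis genes that passed the filter, by list, with SE in the model without a block. Orange points are the 5 genes, filled dark points other genes with an adjusted p under 0.05 with the replicate block, and open points the rest. The recombination genes drawn all lie below 0.

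The recombination list leaned one way. Zcwpw1 and Msh5 were chosen as lower. The other 10 tested genes also had log2 differences below 0, where 49.8% of all genes tested were above 0. The block model called 5 of the 10 lower and 0 higher (50.0% called), where it called 43.9% of all genes and 21.7% as lower. Among the 5, Mnd1 and Psmc3ip encode the partners that help the recombinases pair homologous DNA. Mnd1 was at 21, 20, 54 and 40 normalised reads in Cre replicates 1 to 4 and 47, 62, 72 and 103 in GFP replicates 1 to 4. Its groups overlapped but each pair was lower in Cre (log2 difference -1.12, limma adjusted p = 0.212 without and 0.00183 with the block). Psmc3ip was at 206 ± 35.9 in Cre and 347 ± 69.9 in GFP without overlap (-0.75, adjusted p = 0.118 and with the block 9.58e-05). The nuclease subunit gene Eme1, which also acts in mitotic cells, fell with the block by 1.15 in log2 (adjusted p = 0.000155, 0.229 without). Prdm9, whose marks ZCWPW1 reads, stood at 74.0 ± 16.4 in Cre and 78.8 ± 7.72 in GFP, a log2 difference of -0.11 that passed neither model (adjusted p = 0.847 and with the block 0.649). Its sign turned without replicate 2.

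In the synaptonemal complex and meiotic cohesin list, the block model called 3 genes higher and 3 lower, with 1 not called. That is 85.7% called, against 43.9% of all genes (22.2% higher and 21.7% lower). The 1 not called was Stag3, a meiotic cohesin subunit gene (log2 difference -0.10, adjusted p with the block 0.714, without it 0.976). The synaptonemal complex gene Syce2 rose by 0.25 in log2 (adjusted p with the block 0.0371, without it 0.429). Trip13, an ATPase that remodels HORMA domain proteins in meiosis and at the spindle checkpoint, fell to 538 ± 182 in Cre, against 951 ± 256 in GFP (log2 difference -0.85, adjusted p with the block 1.88e-05, without it 0.237). The chromatid protector gene Sgo1 fell by 0.77 in log2 (adjusted p with the block 7.75e-05, without it 0.286). Tex15, which takes part in recombination and in transposon silencing in male germ cells, had 114, 49, 85 and 168 normalised reads in Cre and 51, 24, 28 and 78 in GFP. Its groups overlapped while every pair was higher in Cre (log2 difference 1.20, adjusted p with the block 0.000195, without it 0.261). Terb1, which ties meiotic telomeres to the nuclear envelope, was higher in Cre without overlap, at 45.3 ± 9.43 against 24.8 ± 8.02 in GFP (0.89, adjusted p with the block 0.0112, without it 0.229). That call was lost without replicate 3 (adjusted p = 0.0542).

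In the piRNA pathway and germ granule list without Tdrkh, the block model called 2 of 5 higher and 1 lower (60.0% called, against 43.9% of all genes). Tdrd1, a germ granule scaffold, stood at 68.5 ± 28.5 in Cre and 43.0 ± 22.6 in GFP, and Tdrd7 at 1271 ± 179 in Cre and 1015 ± 223 in GFP. Their log2 differences of 0.74 and 0.34 had an adjusted p of 0.00861 and 0.000843 with the block, and 0.560 and 0.341 without. Tdrd1 missed the threshold without replicate 3 (adjusted p = 0.0524). Tdrd3, the 1 called lower, fell by 0.31 in log2 (adjusted p with the block 0.00398, without it 0.310). Tdrd3 and Tdrd7 were also listed as somatic tudor domain genes and are counted again among those below. Of 10 germ cell regulators other than Tcfl5, 2 were called higher and 2 lower with the block (40.0% called, near the 43.9% of all genes). The testis bromodomain gene Brdt was at 106 ± 23.1 in Cre and 71.5 ± 9.26 in GFP (0.55, adjusted p with the block 0.00758, without it 0.237). Taf4b, a germ cell form of a general transcription factor subunit, was at 269 ± 9.90 in Cre and 355 ± 16.7 in GFP (-0.40, adjusted p with the block 0.00177, without it 0.0973). Of the 2 tested sperm genes other than Got1l1, Odf2, also a centriole component, was lower with the block (log2 difference -0.15, adjusted p = 0.0286 with the block, 0.623 without). It lost that call without replicate 2 or 4 (adjusted p = 0.098 and 0.145). Catsper2 was not called (-0.07).

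The 59 listed germline genes below the filter had a median level of 4.5 normalised reads. Their mean was higher in Cre for 40 and lower for 18. This split was not counted over all genes below the filter, so nothing is read from it. The groups were without overlap for 2 of the 59, both higher in Cre. Over all genes below the filter 3.81% had groups without overlap, so these 2 are described only. Rec8, the meiotic cohesin subunit, was 1 of the 2, at 29, 67, 18 and 53 normalised reads in Cre replicates 1 to 4 and 1, 17, 1 and 10 in GFP replicates 1 to 4. With no filter, where 0.686% of all genes were called, its log2 difference of 2.84 had an adjusted p of 0.162 in limma, and 0.000475 with the replicate block. The other was Prr19, a meiotic crossover gene, at 2, 2, 4 and 5 in Cre and 0, 0, 1 and 0 in GFP. With the block and no filter, 6 of the 59 were called, where the same fit called 27% of all genes and 7.3% of all genes below the filter.

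Msh5 belongs to the MutS family, whose other members mostly serve mismatch repair in somatic cells. Of 8 other mismatch repair genes tested, 5 fell and 3 were not called in the block model, and 0 were called without it (5 lower at an unadjusted p under 0.05, 0 called with voom). That is 62.5% called with the block, where 43.9% of all genes were called and 21.7% were called lower. Without the block, 2157 of all 12910 genes reached an unadjusted p under 0.05 in either direction. Msh6, a subunit of the complex that recognises mismatches, was at 1570 ± 284 in Cre and 2397 ± 424 in GFP, a log2 difference of -0.61 (adjusted p with the block 2.45e-05, without it 0.121). The exonuclease gene Exo1 fell by 1.06 (3.02e-05 and 0.231), Pms1 by 0.83 (0.000164 and 0.184) and Pms2 by 0.44 (0.000326 and 0.246). Mlh3, a MutL gene that also serves crossovers, did not pass, at -0.04 (adjusted p with the block 0.651), nor did Msh3 at -0.12 (0.134). 

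The closest relatives of Got1l1 passed neither model. Got1, the cytosolic enzyme, was at 1709 ± 223 in Cre and 1554 ± 128 in GFP (log2 difference 0.13, adjusted p = 0.599, with the block 0.0796), and Got2, the mitochondrial one, at 1766 ± 76.4 in Cre and 1913 ± 140 in GFP (-0.11, adjusted p = 0.492, with the block 0.0987). The list of the aminotransferases and the malate-aspartate shuttle also held Srr, the gene of serine racemase. Of its 8 tested genes other than Got1l1, the block model called 2 higher, Srr being 1 of them, and 1 lower. The model without the block called 0 (1 higher at an unadjusted p under 0.05, 0 called with voom). The 37.5% called with the block lie below the 43.9% of all genes. An unadjusted p under 0.05 without the block was reached by 2157 of all 12910 genes. Slc25a13, a mitochondrial aspartate-glutamate carrier, rose by 0.86 (adjusted p with the block 0.000132, without it 0.262), and Srr, serine racemase, by 0.32 (0.00242 and 0.440). Slc25a12, the other carrier, fell by 0.17 (0.0178 and 0.416) and lost that call without replicate 3 (adjusted p = 0.0643). Mdh1, Mdh2 and Slc25a11 did not pass, with differences of -0.03, -0.13 and -0.00, and that of Slc25a11 changed sign in 6 alternatives.

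Genes whose proteins share domains with ZCWPW1 and TDRKH had log2 differences nearer to 0 than Zcwpw1 and Tdrkh, which were chosen by theirs. Of 5 CW domain and PRDM9 genes other than Zcwpw1, 1 was called with the block (20.0%, against 43.9% of all genes). That was Morc2a at a log2 difference of -0.13 (adjusted p = 0.0484, without it 0.657), lost in 5 of 10 fits with the block (adjusted p up to 0.245). Morc3 at 0.10, Morc4 at 0.17 and Kdm1b at 0.02 did not pass, and the sign of Kdm1b changed in 5 alternatives. Among 9 tudor and KH domain genes other than Tdrkh, 4 fell, 1 rose and 4 were not called with the block (55.6% called, against 43.9% of all genes). Without the block 0 were called, and 0 with voom. An unadjusted p under 0.05 without the block was reached by 1, which was lower, and by 2157 of all 12910 genes. Akap1, a mitochondrial protein with tudor and KH domains like TDRKH, fell by 0.38 (adjusted p with the block 0.000587, without it 0.162). Fmr1 fell by 0.22 (0.00508 and 0.349) and Smn1 by 0.18 (0.0295 and 0.376), Smn1 missing the threshold without replicate 3 or 4 (adjusted p = 0.113 and 0.128). Snd1, Smndc1, Fxr1 and Fxr2 lay between -0.03 and 0.11.

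**Figure D4:**
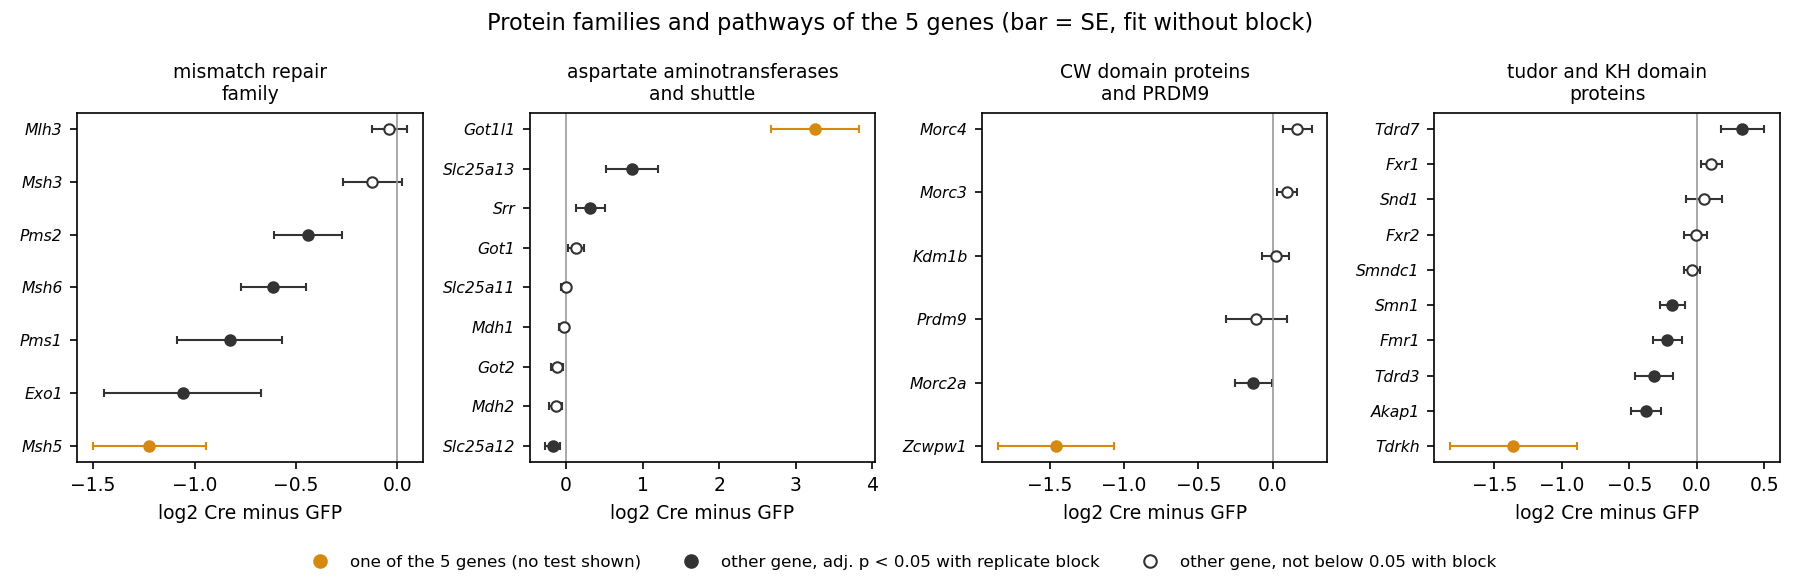
Log2 difference, Cre minus GFP, of Msh5, Got1l1, Zcwpw1 and Tdrkh (orange) and of tested genes of their families or pathways, with SE in the model without a block. Filled dark points have an adjusted p under 0.05 with the replicate block. The x axes differ between panels, and the orange gene, chosen by this difference, is the farthest from 0 in its panel.

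A list of 26 tested genes held repressors of germline genes in somatic cells and other chromatin silencing factors. Of these, the block model called 10 lower and 1 higher, and 0 were called without it (1 lower at an unadjusted p under 0.05, 0 called with voom). That is 42.3% called with the block, against 43.9% of all genes. Without the block, 2157 of all 12910 genes reached an unadjusted p under 0.05. The maintenance DNA methyltransferase Dnmt1 was at 2850, 4180, 4763 and 6086 in Cre replicates 1 to 4 and 5272, 5973, 7217 and 9690 in GFP replicates 1 to 4. The groups overlapped and each pair was lower in Cre (log2 difference -0.67, adjusted p with the block 1.73e-05, without it 0.252). Hells, a remodeller needed for DNA methylation, fell by 0.68 (0.000111 and 0.302), and Wdr5, a subunit of several chromatin complexes, by 0.26 (0.00127 and 0.346). The de novo methyltransferase Dnmt3b, at -0.61 (0.0186 and 0.344), lost its call without replicate 4 (adjusted p = 0.104). The 1 gene called higher was another de novo methyltransferase, Dnmt3a, at 992 ± 161 in Cre and 838 ± 142 in GFP. Its groups overlapped and each pair was higher in Cre (log2 difference 0.25, adjusted p with the block 0.0141, without it 0.469). E2f6, whose product recruits a repressor complex to germline promoters, had a log2 difference of -0.10 (adjusted p with the block 0.163, without it 0.640), and its partner gene Mga one of 0.10 (0.282 and 0.671).

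The genes named here beside the 5 on the chromosome had log2 differences between -0.44 and 0.62. Around Tcfl5, the nearest tested genes Ogfr and Dido1 had log2 differences of 0.11 and -0.16, and the overlapping Col9a3 had 0.56 ± 0.51 (SE), with the 3 adjusted p between 0.371 and 0.639 without the block. With it Dido1 was called (adjusted p = 0.00781). Next to Got1l1, Rab11fip1 had 0.62 (adjusted p = 0.389, with the block 0.000135) and Eif4ebp1 0.05. Mepce, 1.14 kb from Zcwpw1, had -0.14 (adjusted p with the block 0.0388, lost in 5 of 10 fits with the block, up to 0.134), and Zkscan1 0.07. Vars and Clic1, on either side of Msh5, fell by 0.44 and 0.26 with the block (adjusted p = 0.000104 and 0.00105) and were not called without it (0.243 and 0.308). Mrpl9, 8.66 kb from Tdrkh, had -0.17 (adjusted p = 0.353, with the block 0.0171) and lost its call in 2 of 10 fits with the block (adjusted p up to 0.0736).

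**Figure D5:**
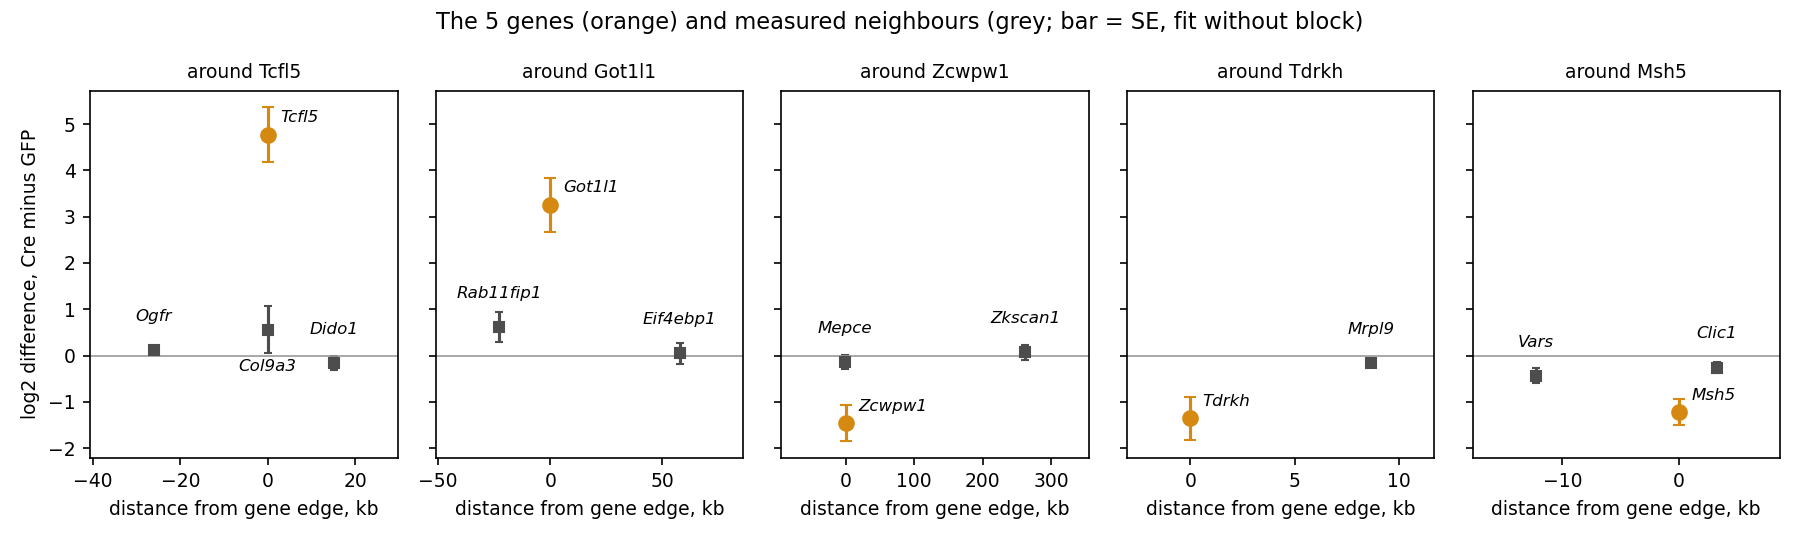
Log2 difference, Cre minus GFP, with SE in the model without a block, of each of the 5 genes (orange) and of tested neighbours (grey), against distance in kb from the gene's edge. The neighbours drawn lie between -0.44 and 0.62, nearer to 0 than the orange genes, which were chosen by this difference.

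The tested genes whose values followed each of the 5 most closely over the 8 libraries were found by Pearson's r on log2 values, as a description. For Tcfl5 they were Vsir (r = 0.990), Aatk (0.986) and Pth1r (0.983). Pth1r, the receptor for parathyroid hormone, had 58, 56, 44 and 29 normalised reads in Cre and 4, 13, 4 and 4 in GFP. For Got1l1 they were Parp10, Nudt22 and 9430018G01Rik (r = 0.968 to 0.973). For Zcwpw1 they were Fam3c, Haus4 and Traf2 (0.980 to 0.984), and for Tdrkh Haus8, Map3k3 and Gpr180 (0.987 to 0.993). Haus4 and Haus8 are subunits of the augmin complex, which seeds microtubules in the spindle. The closest to Msh5 were the replication helicase gene Mcm4, the purine synthesis gene Gart and Exosc10 (0.987 to 0.989). Mcm4 had 3454, 3737, 4038 and 4925 in Cre replicates 1 to 4 and 5351, 5434, 6129 and 7441 in GFP replicates 1 to 4, with the highest value at replicate 4 in both groups, as for Msh5.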

How the data were processed

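Total RNA of 4 Cre and 4 GFP libraries was sequenced; the labels' protocols describe stranded library preparation. Alignment and counting settings, the annotation and strand use are not stated. The submitters' processing notes name, without order or role, DESeq, Subread, featureCounts 1.5.3 and STAR 2.5.3a, with the builds GRCm38 and mm10. The values deposited by the authors are treated as a score, since low whole numbers are missing or doubled at regular steps, as after division by a factor and rounding. The multiplier of each library, 0.741 to 1.20, was estimated from those gaps up to a value of 300. Totals of 23.3 to 38.0 M estimated reads make counting error small except for genes near or below the filter, and reads are not independent molecules.

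Genes with at least 1 read per M reads in 4 libraries were tested with limma 3.58.1 (R 4.3.3) on log2(value + 1) with an intensity trend, two-sided, with Benjamini-Hochberg adjustment over all 12910 genes and a threshold of 0.05. This scale understates the change of low genes. Pairing by number is not stated in the labels and comes from the correlations of 0.820 to 0.908 between same-numbered libraries, so results with the replicate number as a block stand beside those without. The labels say only that each group came from 4 mice.

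The 5 genes and all lists were chosen with earlier results of these data known. The other named genes were those of the relatives' lists, up to 4 with the smallest p of each other list, the nearest tested neighbours and the 3 closest patterns. Exon lengths came from GENCODE M21 and promoters from RefSeq. Motifs were chosen after the promoters had been read. E2f6, Mga, Dnmt3a, Syce2, Stag3 and the genes below the filter were named after their values were seen. A few genes of the lists and neighbours are counted but not reported here by name. Alternatives were voom, other filters, pseudocounts and scalings, the block, and leaving out each library or pair. Python 3.11.15 with numpy 2.4.6, pandas 2.3.3, scipy 1.17.1 and matplotlib 3.10.9 made tables and figures.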

Additional observations from a re-analysis of the deposited data

Results flagged for a closer look

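Among 132 groups of 4 libraries from 66 named genes, 6 held a library whose distance from the nearest other, divided by the range of the group, exceeded Dixon's 95% limit. Chance alone flags about 1 in 20 such groups. Msh5 was at 70 in Cre library 4, against 37 to 41 in the other 3 Cre libraries. Pms1 was at 305 in GFP library 1 and at 432 to 439 in the others. Odf2 was at 2901 in GFP library 4 and at 2045 to 2170 in the others. Cre library 1 stood apart for Slc25a12, at 1109 against 1289 to 1311, for Slc25a13, at 409 against 170 to 207, and for Srr, at 1029 against 635 to 680.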

How the results depend on the processing

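The log2 differences of the 5 genes kept their sign in 117 of 117 values under the alternatives. The same contrast chose these genes, and all 4 pairs of each lay on 1 side of 0. Their sign could therefore hardly turn, and nothing is read from it. The log2 difference of Tcfl5 moved by more than its replicate spread only with a pseudocount of 5 (3.68 in place of 4.77). Leaving out 1 library gave 4.48 to 5.30 for Tcfl5, 2.77 to 3.59 for Got1l1, -1.68 to -1.12 for Zcwpw1, -1.63 to -0.96 for Tdrkh and -1.43 to -1.06 for Msh5.

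Over all genes, 140 were called. A filter of 5 reads per M gave 85, the replicate block 5665 and the block with voom 5811. Chosen after seeing the data, the block with no filter gave 5661, with a filter of 5 per M 4979, with upper quartile scaling 5717 and with equal totals 5764. Leaving out 1 library gave 11 to 58, and leaving out 1 pair under the block 4338, 4593, 4861 and 5013. Each such fit has fewer samples. Of the 34 germline genes other than the 5, 0 were called without the block and 19 with it. The counts that follow include the 5 chosen genes, so they describe the settings and are no test of those genes. Of the 39 germline genes 2 were called, 0 of 22 with a filter of 5 per M (which removes Tcfl5 and Got1l1) and 1 with a pseudocount of 0.1. The block with no filter gave 29 of 98, and with a filter of 5 per M 14 of 22. Over the 39, the block gave 24, with voom 24, with upper quartile scaling 24 and with equal totals 23. Leaving out 1 library gave 0 to 1, and leaving out 1 pair under the block 20 to 21. The cause was not tested for the other settings.

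Differences near 0 changed sign in some fits that left out a library or a pair, and their values that changed sign, with the extremes of the same fits, were: Exd1 (-0.0191, 0.263), Catsper2 (-0.242, 0.0722, 0.0996), Mlh3 (-0.0932, -0.0807, 0.00751, 0.0201), Slc25a11 (-0.0325, -0.0268, 0.00155, 0.00551, 0.00848, 0.00856, 0.0151, 0.0254), Kdm1b (-0.0331, -0.0299, -0.00606, -0.0053, -0.00481, 0.0684), Prdm9 (-0.29, -0.222, 0.0132, 0.0568), Snd1 (-0.0384, 0.144), Fxr2 (-0.0506, -0.0189, 0.00555, 0.00817, 0.0168, 0.0278, 0.0423), Eif4ebp1 (-0.125, -0.04, -0.00363, -0.00102, 0.229) and Zkscan1 (-0.0433, -0.023, 0.181).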

Other observations

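Some germline genes followed the replicate number far more than the group. Sohlh2, a transcription factor of early germ cells, was at 12, 124, 156 and 19 in Cre replicates 1 to 4 and 6, 104, 173 and 9 in GFP replicates 1 to 4. Stag3, another meiotic cohesin subunit, was at 32, 37, 164 and 13 in Cre and 34, 59, 151 and 11 in GFP. The X-linked crossover gene Tex11 was at 10, 0, 40 and 0 in Cre and 7, 0, 30 and 0 in GFP. Gpat2, a mitochondrial piRNA pathway gene, was at 52, 9, 12 and 4 in Cre and 70, 2, 10 and 1 in GFP.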
